A study of Homo sapiens with 24 samples.

Results

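The 42 genes described here encode the proteins that mark, license and fire replication origins and that then copy DNA at the fork, apart from the MCM helicase itself. They were chosen by name from what their products do, with earlier results of these data known. All 42 were found among the 21386 genes counted in these libraries, and all 42 passed the filter on low counts in every comparison. MCM7, a subunit of the replicative helicase, was knocked down in A375 melanoma cells and A549 lung cancer cells with a doxycycline (Dox) inducible short hairpin RNA, and the question asked of these genes is whether the rest of the replication machinery changed with it. The shMCM7 cells were puromycin-selected populations transduced with the lentiviral vector pRSIT17 and received either 1 μg/ml Dox for 72 hours (shMCM7 Dox) or none (shMCM7 noDox). Parental cells of the same line, also with and without Dox (parental Dox and parental noDox), carried no hairpin, and every group of both lines shared the double thymidine block that holds cells at the G1/S boundary. Each of the 8 groups had 3 libraries made from total RNA.

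In the cell cycle, the origin recognition complex binds origins and, with CDC6 and CDT1, loads the MCM2-7 ring onto DNA, while geminin (GMNN) holds CDT1 back. At the start of S phase the kinase DBF4-CDC7 and a group of firing factors add CDC45 and the GINS complex to the ring and so make the active helicase. Polymerase alpha-primase lays the first primers, polymerases epsilon and delta extend the leading and lagging strands, the clamp PCNA is loaded by replication factor C, RPA coats single-stranded DNA, and FEN1, LIG1 and RNase H2 help to finish the joined strands. Many of the genes for these proteins are known targets of the E2F transcription factors, which act around the G1/S boundary.

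The hairpin was directed at this sequence, shown because it is the agent of the knock-down:
shMCM7 target: cagaggaggatttctacgaaa
Its 21 bases were found in the GENCODE 29 transcripts of 1 counted gene, MCM7, in 3 of its 5 protein-coding transcripts. On chromosome 7 (GRCh38, minus strand) the target spans a splice junction, with 3 bases at 100097834 to 100097836 and 18 bases at 100097728 to 100097745, and all 21 bases are coding sequence. In transcript MCM7-201 these lie in exons 8 and 9 of 15. No member gene holds the whole target.

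MCM7 itself separated the labels in A375 but not in A549. Levels are given in CPM, which puts the counts of all libraries on one common total, here scaled by edgeR's TMM method over the 24 libraries. In A375, MCM7 was at 75.8, 74.6 and 76.2 CPM in the shMCM7 Dox libraries. In the shMCM7 noDox libraries it was at 129.6, 347 and 354 CPM, so that replicate 1 of the uninduced cells lay well below the other 2, and the 6 parental libraries lay between 336 and 363 CPM. In A549 the libraries labelled shMCM7 Dox had 302, 339 and 97.5 CPM, those labelled shMCM7 noDox 332, 100.9 and 313 CPM, those labelled parental Dox 336, 330 and 333 CPM and those labelled parental noDox 318, 90.7 and 344 CPM. The low A549 libraries are therefore labelled shMCM7 Dox replicate 3, shMCM7 noDox replicate 2 and parental noDox replicate 2, and MCM7 goes against the label in several libraries of that line. The labels were kept, and A549 values are given library by library. Depth was 146656792 to 283721575 counts per library in A375 and 17911338 to 23452823 in A549, and the lowest count of any member in any library was 926 in A375 and 266 in A549. SOX10, a melanocytic transcription factor, lay between 489 and 666 CPM in A375 and had no count in A549. The melanocytic genes MLANA and TYR were at or close to 0 in A375. The melanocytic gene MITF did not set A375 apart, at 26.3 to 44.0 CPM there and 36.0 to 52.7 CPM in A549. The keratin gene KRT8 lay between 1844 and 2812 CPM in A549 and between 59.9 and 92.7 CPM in A375.

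In libraries labelled parental noDox, the members spanned a wide range of levels. In A375 parental noDox cells, per length (CPM per kilobase of exon), the sliding clamp PCNA was highest at 186 ± 4.74 (SD, n = 3), followed by the flap endonuclease FEN1 at 117 ± 3.64 and RPA2 at 47.0 ± 2.92. The lowest were the firing factor MTBP at 3.06 ± 0.118 and POLE2, the second subunit of polymerase epsilon, at 2.54 ± 0.0663 CPM per kilobase. Of the 41 steps from one member to the next lower one in this order, 15 exceeded the SDs of both neighbours added together and 26 did not. In A549 libraries labelled parental noDox, PCNA was again first at 378 ± 13.4 and FEN1 second at 85.7 ± 1.84. MTBP was last at 1.74 ± 0.295 CPM per kilobase, but here only 3 of the 41 steps exceeded both SDs. Replicate 2 of this A549 group was low in MCM7 (90.7 CPM), so its means and SDs mix libraries with low and normal MCM7. POLE2 lay between 4.505 and 8.09 CPM over the 12 A375 libraries and between 12.2 and 25.8 CPM over the 12 A549 libraries. Cell line, batch and depth cannot be told apart in these differences between the lines.

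**Figure D1:**
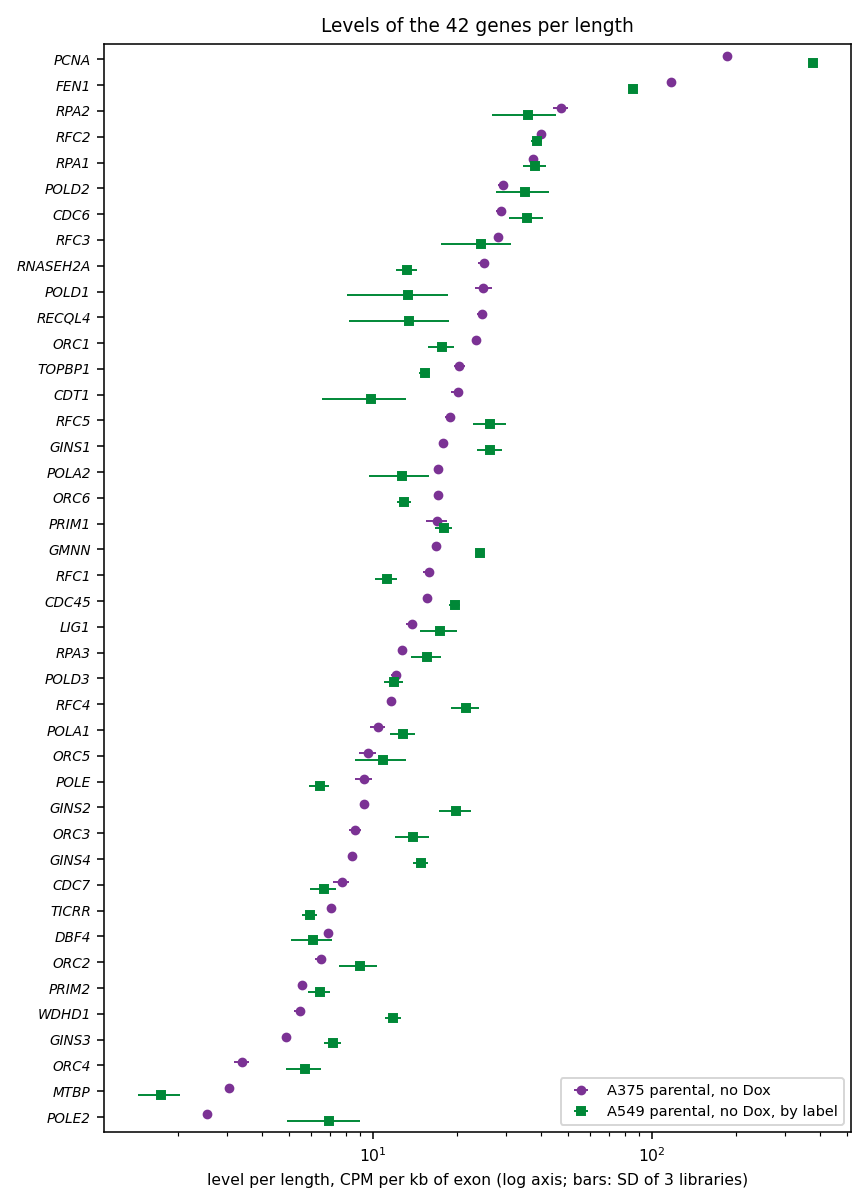
Level of each of the 42 genes per kilobase of exon (x axis, log scale, CPM per kb) in parental cells without Dox, A375 as circles and A549 by label as squares, each the mean of 3 libraries with its SD as a bar, ordered by the A375 level. PCNA heads both lines, at 186 in A375 and 378 in A549, and POLE2 (2.54) and MTBP (3.06) close the A375 order. The A549 means and SDs include replicate 2, which was low in MCM7.

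In A375, induction of the hairpin went with lower RNA for most of the replication machinery, by modest amounts. All 42 members had a negative log2 fold change in shMCM7 Dox against shMCM7 noDox libraries, from -0.02 to -0.78 with a median of -0.33, beside a median of 0.00 over all 16087 genes tested. With edgeR's quasi-likelihood test, 32 of the 42 (76.2%) fell at a false discovery rate (FDR, Benjamini-Hochberg) under 0.05, against 22.4% of all genes, and 0 rose, against 20.6% of all genes. In 36 members (85.7%) every Dox library lay below every noDox library, which was true of 28.5% of all genes, and in 0 members was the order opposite (26.2% of all genes). With the added demand of a 1.5-fold change and a p-value under 0.01, the thresholds the study used, 4 members (9.52%) were down-regulated, beside 6.45% of all genes, and 0 were up-regulated, beside 5.58%, so at that size of change the members' share lay near the background. These 4 were RFC3, POLA2, POLE2 and RFC5. The summed level of the members was 2624 ± 53.8 CPM (SD, n = 3) in shMCM7 Dox libraries, 3319 ± 27.1 in shMCM7 noDox, 3295 ± 33.2 in parental Dox and 3349 ± 17.1 in parental noDox libraries. In bulk RNA, fewer cells with a transcript and less of it per cell cannot be told apart.

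**Figure D2:**
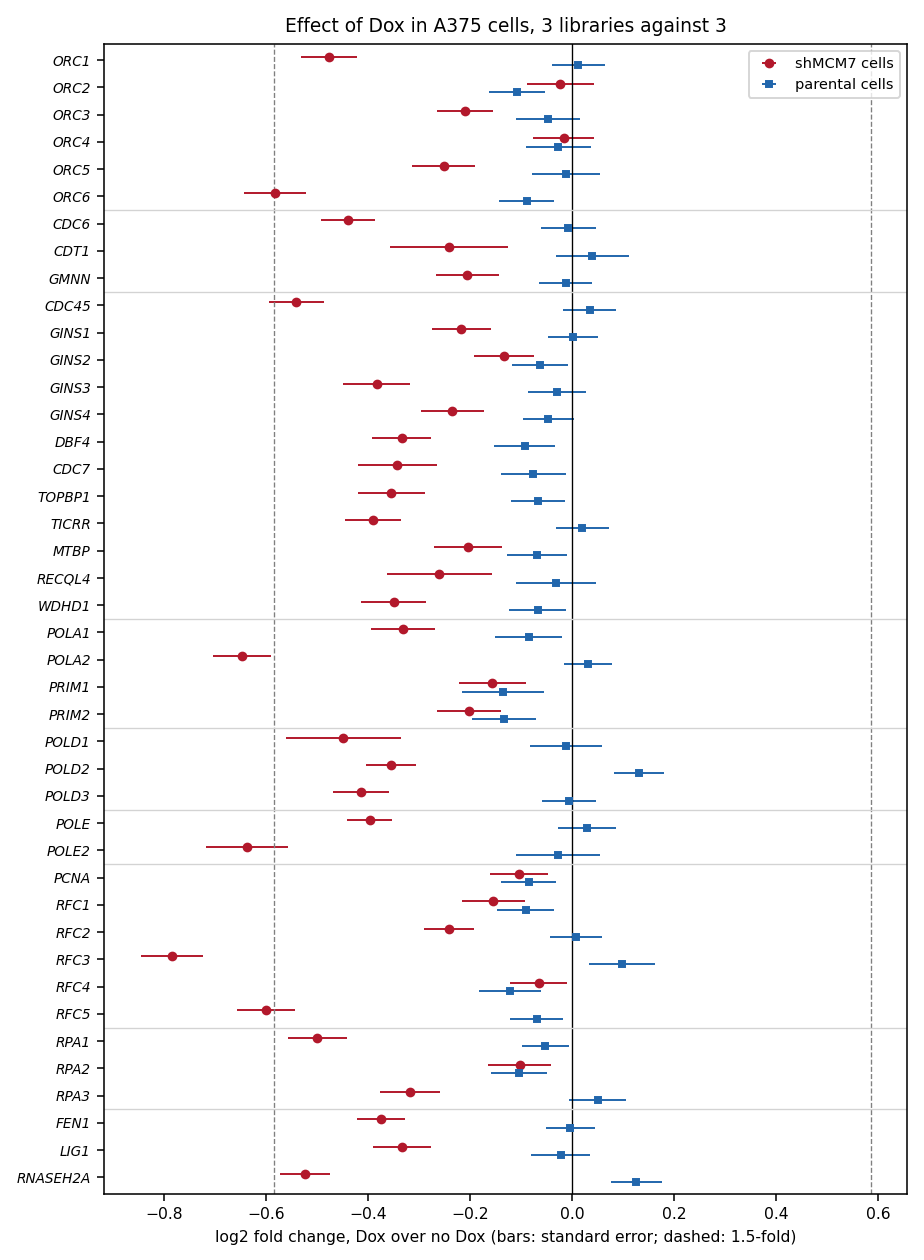
Log2 fold change of Dox over no Dox for each member (x axis, log2 units; bars, standard error from edgeR; 3 libraries against 3), in shMCM7 cells as red circles and parental cells as blue squares, with dashed lines at 1.5-fold and grey lines between functional groups. All 42 red points lie left of 0, from -0.02 to -0.78, and 4 pass the 1.5-fold line, while the parental points lie between -0.14 and 0.13.

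In parental A375 cells, which had Dox but no hairpin, no member passed the test. In edgeR 0 of 42 members and 0 of 15993 genes (0%) passed either threshold, with 2 members higher (3.97% of all genes) and 0 lower (3.04%) at an unadjusted p under 0.05, and DESeq2 called 3 genes higher and 0 members. The members' median log2 fold change was -0.03 and their range -0.14 to 0.13. Between shMCM7 noDox and parental noDox cells 0 members passed FDR 0.05 in edgeR or DESeq2, beside 1.07% of 16093 genes lower and 1.9% higher in edgeR. At an unadjusted p under 0.05 there was 1 member lower (7.69% of all genes) and 0 higher (8.54%), and the members' median was -0.01. With the replicate number as a block in that comparison, where same-numbered libraries deviated together, 149 genes were called lower and 335 higher in place of 77 (0.478%) and 189 (1.17%), and again 0 members.

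What Dox did in shMCM7 cells was not what it did in parental cells for 24 members by the interaction test. The log2 difference of the 2 Dox effects was negative for 39 members, with a median of -0.28 (-0.00 over 16334 genes). It passed FDR 0.05 in the lower direction for 24 members (57.1%; 16.5% of all genes) and in the higher direction for 0 (13.5%). With the 1.5-fold demand it passed for 4 members (9.52%; 6.17% of all genes), RFC3, POLA2, RNASEH2A and POLE2, and in the higher direction for 0 (4.37%). Of the 32 members that fell in shMCM7 cells, 8 had no interaction at FDR 0.05 in the main test. These were CDC7, GINS4, GMNN, MTBP, ORC3, ORC5, POLA1 and PRIM2. The split depended on the setting. In place of 24, the members passing in the lower direction numbered 26 in DESeq2, 28 when replicates were blocked and 23 without the filter on low counts. Leaving out single libraries gave 20 to 27. Against the other control, parental cells with Dox, the shMCM7 Dox libraries had 30 members lower at FDR 0.05 (71.4%; 24.8% of 16086 genes) and 0 higher (23.2%), with a median of -0.33. At 1.5-fold 5 were lower (11.9%; 8.39% of all genes) and 0 higher (7.64%). These comparisons share the shMCM7 Dox libraries. Over all 12 A375 libraries, the 3 lowest were the 3 shMCM7 Dox libraries for 33 members (78.6%), against 21.8% of all genes, and the 3 highest were these libraries for 0 members, against 19.6%.

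**Figure D3:**
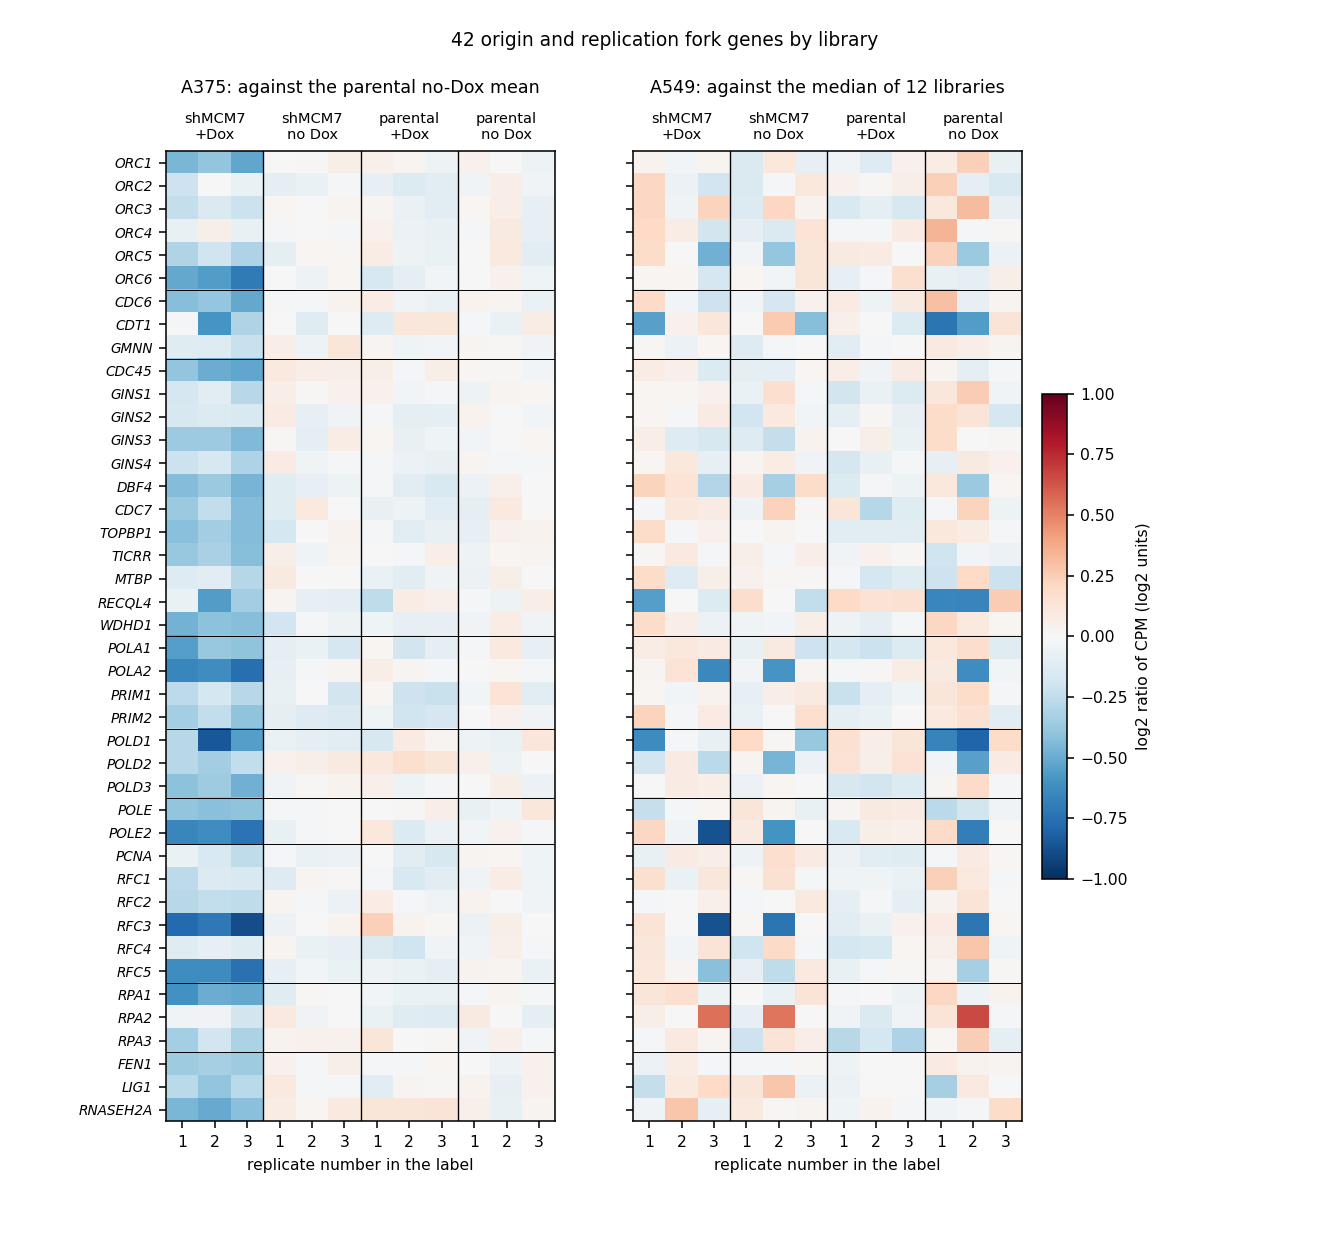
Each row is a member and each column a library, grouped by label; colour is the log2 ratio of CPM to the mean of the parental no-Dox libraries (A375, left) or to the median of the 12 libraries (A549, right), blue for lower and red for higher, with lines between functional groups. In A375 the 3 shMCM7 Dox columns are blue through most rows, and in A549 strong blue in RFC3, POLA2 and POLE2 appears in 3 columns that carry 3 different group labels.

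Within the clamp and clamp loader, the response was split. Replication factor C is a ring of a large subunit, RFC1, and 4 small ones, and it opens the PCNA clamp to put it on DNA. RFC3 showed the largest change of all members: its level was 47.2, 49.3 and 43.8 CPM in shMCM7 Dox libraries and 77.6, 81.2 and 83.0 CPM in shMCM7 noDox libraries. In parental cells RFC3 was at 95.2, 82.8 and 81.5 CPM with Dox and at 77.8, 84.1 and 80.7 CPM without. The 3 induced libraries thus lay apart from all 9 others. The log2 fold change was -0.78 ± 0.06 (SE; FDR = 4.7e-05), at the 4.56th percentile of all genes, and the interaction was -0.89 ± 0.09 (FDR = 2.8e-05).

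RFC5 fell as well, from 57.7, 60.0 and 58.2 CPM in noDox libraries to 39.8, 39.6 and 36.5 CPM in Dox libraries. Parental libraries held 57.3 to 62.6 CPM of it, above all 3 induced libraries. Its log2 fold change was -0.60 ± 0.06 (FDR = 8.3e-05), close to the 1.5-fold line, and it fell short of that line without Dox replicate 3 (-0.55) or noDox replicate 2 (-0.58). RFC5 shares 186 exon bases with WSB2 on the other strand, and whether the counting used strand is not stated. Of the 42 members, 11 share exon bases with a counted gene on the other strand (ORC4, GINS2, DBF4, TICRR, MTBP, PRIM1, RFC4, RFC5, RPA1, RPA3 and FEN1) and 4 with one on the same strand (PRIM1, POLD1, FEN1 and RNASEH2A), and their counts carry that uncertainty. RFC2 fell by 0.24 on the log2 scale (SE 0.05, FDR = 0.0038). RFC1 (-0.16, FDR = 0.069), RFC4 (-0.07, FDR = 0.36) and PCNA (-0.10, FDR = 0.17) did not pass, and PCNA lay at 261, 247 and 230 CPM with Dox and 270, 262 and 263 CPM without. The clamp and its loader therefore had 3 of 6 members lower, with the median log2 fold change at -0.20.

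Polymerase alpha-primase starts every new strand. POLA2, its regulatory B subunit, was at 62.6, 64.0 and 58.3 CPM in shMCM7 Dox libraries and 93.0, 96.7 and 100.1 CPM in shMCM7 noDox libraries. Parental libraries lay between 97.0 and 102.6 CPM for POLA2, with no overlap with the induced cells. Its log2 fold change was -0.65 ± 0.06 (FDR = 6.9e-05) and its interaction -0.68 ± 0.07 (FDR = 2.2e-05). The catalytic subunit POLA1 (-0.33, FDR = 0.0026) and the primase large subunit PRIM2 (-0.20, FDR = 0.028) also fell, whereas the primase catalytic subunit PRIM1 did not pass (-0.16, FDR = 0.079). For PRIM1 and PRIM2 the parental Dox effect was -0.14 and -0.13, and their interactions of -0.02 (FDR = 0.90) and -0.07 (FDR = 0.56) did not pass, nor did that of POLA1 (-0.25, FDR = 0.058).

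Among the polymerases that extend the strands, every subunit on the member list fell. POLE2, the least abundant member per length, was at 4.781, 4.894 and 4.505 CPM in shMCM7 Dox libraries and 7.14, 7.46 and 7.48 CPM in shMCM7 noDox libraries. In parental cells POLE2 stood at 8.09, 6.82 and 7.20 CPM with Dox and 7.37, 7.74 and 7.44 CPM without, again above all induced libraries. The log2 fold change was -0.64 ± 0.08 (FDR = 2.9e-04), with an interaction of -0.61 ± 0.11 (FDR = 8.9e-04) that slipped under 1.5-fold without shMCM7 Dox replicate 3 (-0.58) or parental Dox replicate 1 (-0.54). The catalytic subunit POLE fell by 0.40 (SE 0.04, FDR = 1.9e-04). In polymerase delta, all 3 members fell, POLD1 by 0.45, POLD3 by 0.41 and POLD2 by 0.36. The further subunits POLD4, POLE3 and POLE4 were not members. POLD4 lay higher in shMCM7 Dox libraries, at 72.5, 66.7 and 75.7 CPM, than in shMCM7 noDox libraries, at 58.2, 51.5 and 50.2 CPM. POLE3 lay lower, at 102.6, 105.6 and 100.2 CPM with Dox and 129.7, 130.2 and 135.8 CPM without. POLE4 also lay lower, at 25.5, 22.9 and 23.8 CPM with Dox and 26.4, 27.4 and 26.6 CPM without.

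POLD1, the catalytic subunit, varied most among the induced libraries, with CDT1 and RECQL4. It was at 101.2, 68.1 and 83.7 CPM with Dox and 116.7, 114.8 and 114.0 CPM without, so all 3 induced libraries were below the uninduced ones but ranged widely. POLD1 shares 426 exon bases with AC020909.1 on the same strand, so its count is uncertain to that extent. Parental libraries held 109.8, 129.5 and 124.6 CPM of POLD1 with Dox and 118.2, 117.2 and 132.4 CPM without. Its standard error of 0.11 left it at FDR = 0.011, and without Dox replicate 1 the change was -0.60 and passed the 1.5-fold line. The licensing factor CDT1 (SE 0.12) and the helicase RECQL4 (SE 0.10), which acts in origin firing, shared this spread, and the other 39 members had standard errors of at most 0.08. CDT1 was at 66.1, 44.5 and 54.3 CPM with Dox and 66.8, 61.6 and 66.8 CPM without, and its change of -0.24 did not pass (FDR = 0.12), nor did that of RECQL4 (-0.26, FDR = 0.068). For each of the 3 genes replicate 2 was the lowest and replicate 1 the highest of the induced libraries. They were singled out after their values were seen. They also have the highest GC content of the members in their longest coding transcript, 65.5% for RECQL4, 65.0% for POLD1 and 64.9% for CDT1, with the others between 36.6% and 59.1%. Over the 42 members, the SD of log2 CPM among the induced libraries and GC content had Pearson's r = 0.48 and Spearman's rho = -0.12. The part of GC content in the spread was not tested.

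**Figure D4:**
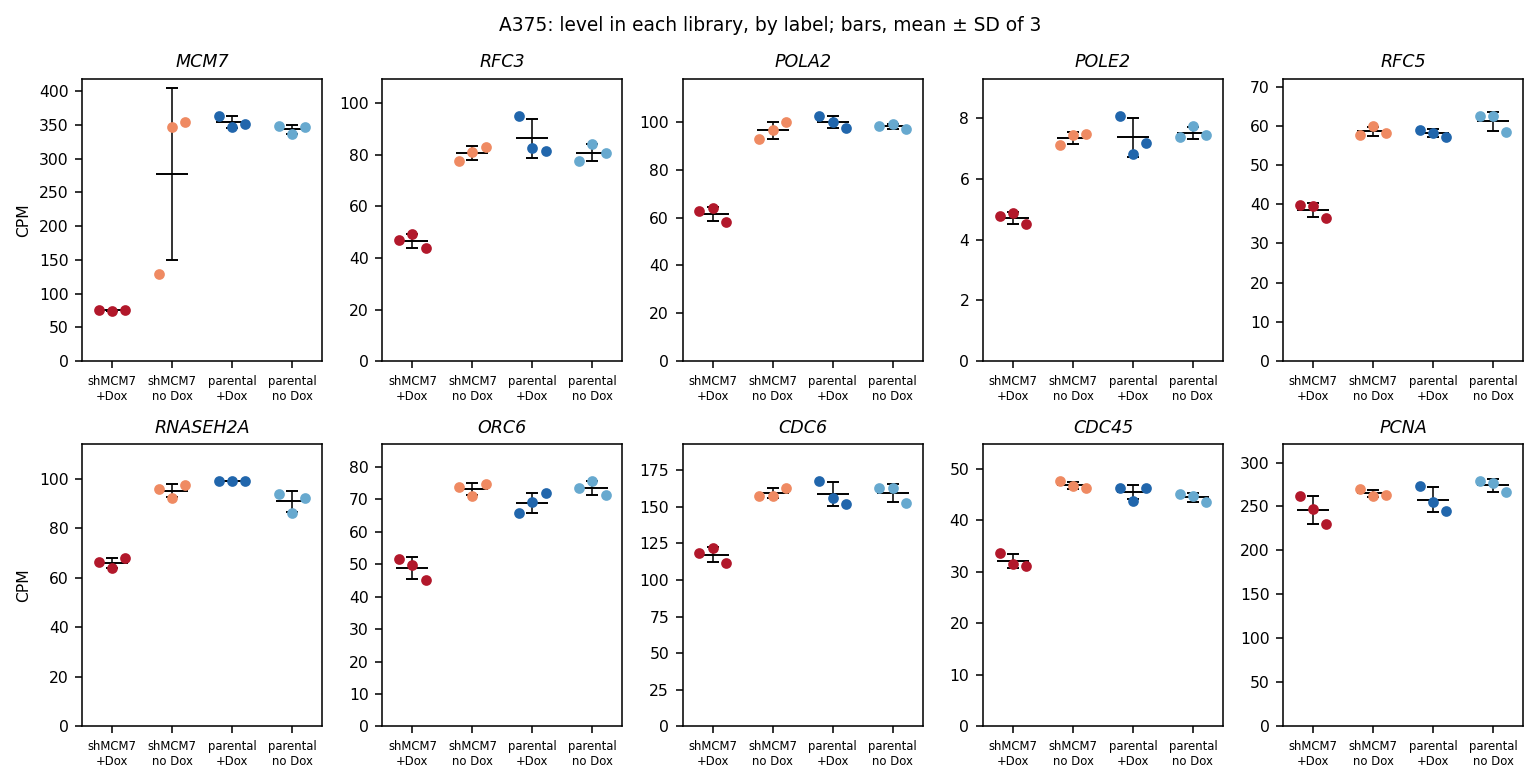
CPM (y axis, from 0) of MCM7 and 9 members in the 12 A375 libraries by group, points from left to right being replicates 1, 2 and 3 of each group, black bars the mean and SD of 3. For RFC3, POLA2, POLE2, RFC5, RNASEH2A, ORC6, CDC6 and CDC45 the 3 induced libraries lie below all 9 others, for PCNA they overlap with them, and replicate 1 of the uninduced cells is low for MCM7 (129.6 CPM) but lies above all 3 induced libraries for the 9 members.

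Of the Okazaki fragment enzymes, all 3 fell. RNASEH2A, the catalytic subunit of RNase H2, had 66.1, 64.0 and 67.9 CPM in shMCM7 Dox libraries and 95.6, 92.2 and 97.3 CPM in shMCM7 noDox libraries. Its parental levels were 98.9, 98.8 and 99.0 CPM with Dox and 93.9, 86.2 and 92.3 CPM without, and its parental log2 fold change of 0.13 did not pass (FDR = 0.65). The log2 fold change of RNASEH2A was -0.52 ± 0.05 (FDR = 8.3e-05), short of 1.5-fold, while the interaction of -0.65 ± 0.06 (FDR = 1.6e-05) passed it. The gene shares 1123 exon bases with THSD8 on the same strand, so its count is uncertain to that extent. The flap endonuclease FEN1 fell by 0.38 and DNA ligase LIG1 by 0.33.

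The origin recognition complex was uneven, with 4 of 6 subunits lower. ORC6, its smallest subunit, had 51.5, 49.8 and 45.1 CPM in shMCM7 Dox libraries and 73.8, 71.1 and 74.6 CPM in shMCM7 noDox libraries. Parental levels of ORC6 were 65.8, 69.2 and 71.9 CPM with Dox and 73.6, 75.6 and 71.3 CPM without, all above the induced ones. Its log2 fold change of -0.58 ± 0.06 (FDR = 1.3e-04) lay at the 1.5-fold line and crossed it with the replicate block (-0.59). ORC1 fell by 0.48, ORC5 by 0.25 and ORC3 by 0.21. By the interaction 2 of the 6 passed, ORC1 and ORC6, whereas ORC5 (-0.24, FDR = 0.059) and ORC3 (-0.16, FDR = 0.13) did not. ORC2 (-0.02, FDR = 0.80) and ORC4 (-0.02, FDR = 0.84) gave no detectable change, with standard errors of 0.07 and 0.06, and their sign turned when single libraries were left out.

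For helicase loading, CDC6 showed the clearest change. CDC6 was at 118.5, 121.8 and 111.7 CPM in shMCM7 Dox libraries and 157.7, 157.4 and 163.0 CPM in shMCM7 noDox libraries. In parental libraries it was at 167.6, 155.9 and 151.8 CPM with Dox and 163.1, 162.7 and 152.6 CPM without, above all 3 induced ones. Its log2 fold change was -0.44 ± 0.05 (FDR = 2.5e-04). Geminin (GMNN), the inhibitor of CDT1, fell by 0.21 (FDR = 0.023), and its interaction did not pass (-0.20, FDR = 0.063).

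Among the 12 genes for assembly of the active helicase and for origin firing, 10 fell and the median was -0.34. CDC45, the helicase subunit recruited at firing, led them with 33.7, 31.6 and 31.1 CPM in shMCM7 Dox libraries and 47.6, 46.5 and 46.2 CPM in shMCM7 noDox libraries. It lay between 43.5 and 46.3 CPM in the parental libraries, with no overlap. Its log2 fold change was -0.54 ± 0.05 (FDR = 1.1e-04), and the interaction of -0.58 ± 0.07 passed 1.5-fold when any of 4 libraries was left out. TICRR (-0.39), TOPBP1 (-0.36), WDHD1 (-0.35), CDC7 (-0.34) and DBF4 (-0.33), which act in firing or couple the helicase to polymerase alpha, fell by similar amounts. Of the GINS subunits, GINS3 (-0.38), GINS4 (-0.24) and GINS1 (-0.22) fell and GINS2 did not pass (-0.13, FDR = 0.096). By the interaction 7 of the 12 passed, with a median of -0.26, and of those that fell CDC7 (-0.27, FDR = 0.061), GINS4 (-0.19, FDR = 0.065) and MTBP (-0.14, FDR = 0.23) did not pass.

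In the single-strand binding complex, RPA1 had 135.4, 145.7 and 144.4 CPM in shMCM7 Dox libraries and 189.0, 207.7 and 205.6 CPM in shMCM7 noDox libraries. The parental libraries held 196 to 210 CPM of RPA1, and the log2 fold change was -0.50 ± 0.06 (FDR = 2.2e-04). RPA3 fell by 0.32, whereas RPA2 did not pass (-0.10, FDR = 0.21) and had an interaction of -0.00 (FDR = 0.99).

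In the uninduced library with little MCM7, shMCM7 noDox replicate 1, 40 of the 42 members stood above all 3 induced libraries. Counted over all 42 members, it was below both other uninduced libraries for 16, among them all 4 called ones. The share of all genes in either position was not computed, so neither count can be set against a background. MCM7 lay there at 35.2% of the log2 distance from the mean of the induced libraries to the mean of the other 2 uninduced ones, and the same measure was 90.1% for RFC3, 87.95% for POLA2, 90.0% for POLE2 and 94.3% for RFC5. Over the 32 members that fell it ranged from 52.5% to 158% with a median of 100.3%, given as a description, since the test that chose these members used this library. When it was left out, 4 members were still called, 30 fell at FDR 0.05 and the median was -0.34.

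Other genes of replication and of the cell cycle moved in the same libraries. Of the 22 further replication genes, 14 fell and 1 rose at FDR 0.05 (median log2 fold change -0.30), led by DBF4B (-0.72), SKP2 (-0.68) and TIMELESS (-0.59). Of the 5 remaining MCM subunits 2 fell, MCM4 (-0.32) and MCM3 (-0.19), 0 rose, and the median was -0.07. Of 7 genes for nucleotide supply 5 fell and 1 rose, with thymidine kinase TK1 at -0.54. Of 16 genes that peak in G2 and mitosis 14 fell, 6 of them by 1.5-fold, with a median of -0.50, led by CCNB1 (-0.92), PLK1 (-0.85) and CENPE (-0.85). The summed level of these 16 was 1271 to 1399 CPM in shMCM7 Dox, 1753 to 1844 in shMCM7 noDox, 1684 to 1784 in parental Dox and 1797 to 1810 in parental noDox libraries. Their part in the members' change was not tested. Of the marker lists, the summed melanocytic genes lay at 567 to 666 CPM in shMCM7 Dox, 646 to 675 in shMCM7 noDox, 670 to 732 in parental Dox and 641 to 702 in parental noDox libraries, and within the list PMEL fell (-0.92) and MITF rose (0.34) in shMCM7 Dox against noDox libraries. The summed epithelial genes lay at 368 to 478, 351 to 411, 288 to 293 and 279 to 300 CPM in the same order, with EPCAM higher (1.05) and KRT19 lower (-1.10). Both were at very low levels, EPCAM at 0.271 to 0.826 CPM and KRT19 at 0.0482 to 0.160 CPM over the 12 A375 libraries. Against parental Dox libraries 4 of the 6 epithelial genes were higher and 1 lower at FDR 0.05, with a median of 0.41. Without Dox, 3 were already higher and 0 lower in shMCM7 against parental cells, with a median of 0.39. Their median in shMCM7 Dox against noDox libraries was -0.01. The part of these genes in the members' values was not tested.

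The promoters of the members were searched for letters of cell-cycle factors, as something the choice of the list did not use. The table used (RefSeq, GRCh38.p14, 250 bases before to 50 after a start) held 36 of the 42 members and lacked GINS4, MTBP, RECQL4, POLD3, RPA2 and RPA3. The E2F letters searched were TTTCCCGC, TTTCGCGC, TTTGCCGC and TTTGGCGC, on either strand. They occurred in 16 of the 36 members (44.4%) and in 5.36% of 14901 counted genes with a window, and on the gene's own strand alone in 13.9% and 3%. CCAAT occurred in 52.8% of members and 42.3% of genes, and the cell-cycle homology letters TTTGAA or TTTAAA, of which the latter reads the same on both strands, in 11.1% and 24.6%. None of these strings contains another. The windows of 3 of the 4 called members that hold E2F letters, on the strand of the gene and with the match in capitals, were these:
RFC3, chr13:33817899-33818198, plus strand: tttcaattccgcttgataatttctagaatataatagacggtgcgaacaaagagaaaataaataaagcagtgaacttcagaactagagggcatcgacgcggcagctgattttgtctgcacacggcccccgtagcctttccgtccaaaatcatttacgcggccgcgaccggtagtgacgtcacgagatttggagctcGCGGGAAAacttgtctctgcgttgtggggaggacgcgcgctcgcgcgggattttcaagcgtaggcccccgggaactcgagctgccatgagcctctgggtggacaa
POLA2, chr11:65261712-65262011, plus strand: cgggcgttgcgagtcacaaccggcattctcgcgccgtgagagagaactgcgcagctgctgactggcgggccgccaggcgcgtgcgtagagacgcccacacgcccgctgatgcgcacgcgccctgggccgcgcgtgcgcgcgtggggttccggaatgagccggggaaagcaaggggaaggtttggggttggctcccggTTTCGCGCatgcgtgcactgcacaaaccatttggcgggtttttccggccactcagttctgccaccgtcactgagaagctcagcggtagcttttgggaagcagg
POLE2, chr14:49688165-49688464, minus strand: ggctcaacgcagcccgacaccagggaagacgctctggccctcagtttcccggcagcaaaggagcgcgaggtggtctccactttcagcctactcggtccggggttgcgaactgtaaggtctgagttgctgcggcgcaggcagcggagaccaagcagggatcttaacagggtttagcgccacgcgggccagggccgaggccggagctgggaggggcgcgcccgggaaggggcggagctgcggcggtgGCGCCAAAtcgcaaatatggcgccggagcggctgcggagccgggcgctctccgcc
The match starts 55 bases before the annotated start in RFC3, 53 before it in POLA2 and 5 before it in POLE2. RFC5 has none of the letters in its window. The median log2 fold change was -0.34 (13 of 16 at FDR 0.05) for members with E2F letters and -0.35 (15 of 20) for members without.

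In A549, the comparisons by label called no member. The libraries low in MCM7 include replicate 3 of shMCM7 Dox and replicate 2 of shMCM7 noDox, on opposite sides of the shMCM7 comparison. That comparison therefore did not set low against normal MCM7 and cannot show whether members change with MCM7. In shMCM7 Dox against noDox libraries, 0 of 42 members and 0 of 13550 genes (0%) passed FDR 0.05 in edgeR and 0 genes were called in DESeq2. At an unadjusted p under 0.05 there were 0 members lower (0.376% of all genes) and 0 higher (0.0738%), and the members' median log2 fold change was 0.01. In parental cells 0 members and 0 of 13494 genes (0%) passed in edgeR, with 4 members lower (3.5% of all genes) and 1 higher (4.93%) at an unadjusted p under 0.05, and DESeq2 called 9 genes higher and 0 members. The 14 members (33.3%; 10.9% of all genes) with every parental Dox library below every parental noDox library had no FDR under 0.05, and 1 member (9.38% of all genes) showed the opposite order. Without the library labelled parental noDox replicate 3, 300 of 13590 genes were called higher with Dox, among them 3 of the 42 members. These were POLD1 (0.85), RECQL4 (0.83) and CDT1 (0.62). The noDox side then held replicates 1 and 2, and replicate 2 was low in MCM7. The 3 genes are also the members with the highest GC content, whose part was not tested. RECQL4 was at 79.7, 76.8 and 77.4 CPM in libraries labelled parental Dox and at 44.1, 44.1 and 82.7 CPM in those labelled parental noDox.

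Member by member, the 3 A549 libraries low in MCM7 were the lowest of the 12 for some genes, whatever the label. That held for 8 of the 42 members (19%), beside 18.8% of all genes. The values below thus describe a pattern whose share among the members lay at the background. RFC3 had 86.0, 78.6 and 42.8 CPM in libraries labelled shMCM7 Dox and 78.7, 47.1 and 77.8 CPM in those labelled shMCM7 noDox. In libraries labelled parental it had 72.3, 74.5 and 80.5 CPM with Dox and 82.9, 47.3 and 79.2 CPM without. Its 3 lowest libraries were the 3 with the least MCM7.

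POLA2 had 82.9, 89.1 and 51.9 CPM in the shMCM7 Dox, 79.7, 54.0 and 82.8 CPM in the shMCM7 noDox, 80.5, 81.8 and 85.3 CPM in the parental Dox and 86.2, 52.8 and 79.5 CPM in the parental noDox libraries. POLE2 had 25.8, 21.7 and 12.2 CPM, then 23.7, 14.8 and 22.3 CPM, then 20.04, 23.2 and 23.1 CPM, then 25.6, 13.8 and 22.3 CPM in the same order of labels. The same 3 libraries were lowest for both.

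RFC5 lay between 68.2 and 76.1 CPM in these 3 libraries and between 86.0 and 98.1 CPM in the other 9. Over all members, the 3 libraries were the lowest of the 12 for 8 (19%), namely ORC5, CDC6, DBF4, POLA2, POLD2, POLE2, RFC3 and RFC5, beside 18.8% of all genes. They were the highest for 3 members (7.14%; 20.4% of all genes), ORC3, RFC4 and RPA2. The count of low members was thus at the background, and it is a description of ranks, with no test, since the labels do not set these libraries apart.

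RPA2 went the other way, at 61.7, 59.3 and 86.7 CPM in libraries labelled shMCM7 Dox and 56.2, 85.8 and 59.3 CPM in those labelled shMCM7 noDox. With the parental labels it had 57.9, 53.7 and 57.8 CPM with Dox and 64.7, 93.7 and 58.8 CPM without. CDC6 was separated narrowly, with 161 to 175 CPM in the 3 libraries and 180 to 229 CPM in the other 9. The summed level of the members lay between 3447 and 3661 CPM over the A549 libraries. For 3 further genes the low-MCM7 libraries overlapped with the other 9. PCNA was at 569 to 613 CPM in the low-MCM7 libraries and 500.3 to 577 CPM in the other 9. ORC6 was at 50.6 to 55.8 CPM and 53.8 to 63.5 CPM. For CDC45 the overlap was narrow, at 51.7 to 53.2 CPM and 53.0 to 60.4 CPM.

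**Figure D5:**
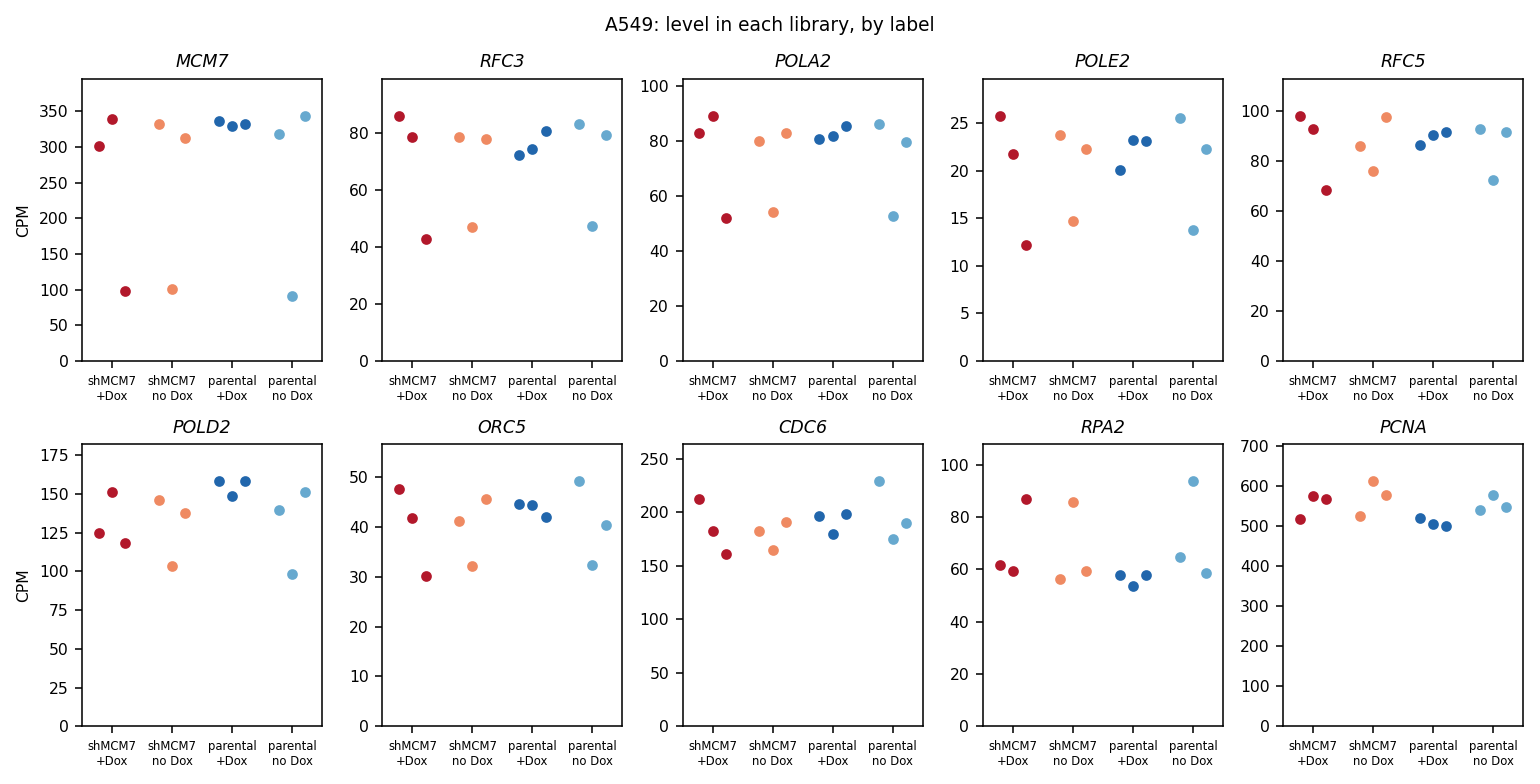
CPM (y axis, from 0) of MCM7 and 9 members in the 12 A549 libraries, grouped by label, points from left to right being replicates 1, 2 and 3. The same 3 points, shMCM7 +Dox 3, shMCM7 no Dox 2 and parental no Dox 2, are lowest for MCM7 (90.7 to 100.9 CPM), RFC3, POLA2, POLE2, RFC5, POLD2, ORC5 and CDC6 and highest for RPA2, and they overlap with the others for PCNA. The panels are a selection: these libraries were lowest for 8 of the 42 members (19%), beside 18.8% of all genes.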

How the data were processed

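Total RNA was sequenced in 24 libraries, 3 per group. Per the labels, the submitters' processing notes name bcl2fastq 2.19, Trimmomatic, STAR 2.7.1, featureCounts and edgeR with build GRCh38.p10. The authors deposited raw counts per Ensembl gene for each library, with no normalization. In the study's methods STAR aligned the reads and DESeq2 and edgeR tested expression, while strand and multi-mapping settings are not given in the sources used here. Symbols, positions and exon lengths came from GENCODE 29 (21349 of 21386 genes matched).

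Groups came from the labels. Counts were tested with edgeR 4.0.16 in R 4.3.3 (filterByExpr, TMM, glmQLFit, glmQLFTest, prior count 0.125) on all genes, each comparison with its own libraries, and the interaction over 4 groups. Genes were called at a fold change of 1.5, p under 0.01 and FDR under 0.05. Standard errors are the fold change over the root of F. Depth was 146656792 to 283721575 (A375) and 17911338 to 23452823 counts (A549), where 3 counts equal 0.0106 to 0.0205 and 0.128 to 0.167 CPM. The steps were tested on simulated data. All 42 members may be named. Values in every library are given for called members and for the largest change in each functional group, and other lists name at most 3 genes. The library values of PCNA, CDT1, RECQL4 and RPA2 fall outside that rule, as do the A549 panels of POLD2 and ORC5. All were chosen after they were seen. The same holds for the naming and the library values of POLD4, POLE3 and POLE4. The members and lists were chosen with earlier results of these data known. Replicates were described as biological, and in all 24 replicate pairs counts differed beyond sampling noise (chi-square per degree of freedom at least 1.98).

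The shared replicate numbers of the labels were checked as a pairing. Residuals over genes were taken about each group's mean. Between shMCM7 noDox and parental noDox A375 cells, libraries with one number correlated at 0.212 to 0.341, over 0.1 in every pair. In A375 shMCM7 cells they correlated at 0.0881 to 0.256, so not every pair was over 0.1. Libraries with different numbers correlated at -0.253 to -0.0545 between the uninduced cells and at -0.235 to 0.0429 in shMCM7 cells. Alternatives were DESeq2 size factors, DESeq2 1.42.0, no filter, at least 10 counts in every library, a dispersion shared by the 12 libraries of a line, glmTreat, the replicate block and leaving out each library. Leaving out 2 A549 libraries together was added after seeing the data.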

Additional observations from a re-analysis of the deposited data

Results flagged for a closer look

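For 4 members edgeR's interaction test in A375 found, past the 1.5-fold line, that Dox acted otherwise in cells with the hairpin than in parental cells. The log2 difference (shMCM7 minus parental) was -0.89 for RFC3, -0.68 for POLA2, -0.65 for RNASEH2A and -0.61 for POLE2, and in each of them all 3 induced libraries lay below the 9 others. These 4 are 9.52% of the members, beside 6.17% of all genes tested, a share near the background. Without single libraries the POLE2 difference ranged from -0.66 to -0.54, and it fell under 1.5-fold without shMCM7 Dox replicate 3 or parental Dox replicate 1.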

How the results depend on the processing

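In A375 shMCM7 cells, the 42 fold changes were recomputed under 12 alternatives. Of these 504 values, 493 kept direction and call, 2 lost the call, 5 gained it and 4 changed sign, all 4 in ORC2 (-0.075 to 0.037 when single libraries were left out) and ORC4 (-0.067 to 0.014). Leaving out single libraries gave 3 to 6 members called and 27 to 33 lower at FDR 0.05. With glmTreat, which tests against a 1.5-fold change, 1 member was called in each A375 comparison that had called members. The genes called lower and higher were then 279 and 220 for shMCM7 Dox against noDox, 184 and 89 for the interaction, 678 and 596 against parental Dox, and 14 and 72 between the uninduced cells. Without the filter on low counts, 3 members were called against parental Dox cells. DESeq2 called 3 genes higher in A375 and 9 in A549 parental cells. With the replicate block, genes called were 12 higher in A375 parental cells and 149 lower and 335 higher between the uninduced cells, and in shMCM7 cells 5 members were called. In that last comparison the block left 36 members lower at FDR 0.05, in place of 32. Same-numbered libraries correlated there above the other pairs, though not over 0.1 in every pair. The main test did not use this possible pairing. Leaving out single libraries gave 0 to 1 genes higher in A375 parental cells, 39 to 66 lower between the uninduced cells, an A549 shMCM7 median of -0.016 to 0.053, and in A549 parental cells 0 to 300 genes and 0 to 3 members higher at either threshold. Without both A549 shMCM7 libraries low in MCM7, an alternative chosen after seeing the data, that median was 0.045, with no member called. On totals without TMM, the summed member level was 3371, 3335 and 3424 CPM in A375 shMCM7 noDox, parental Dox and parental noDox cells and 3387 and 3481 CPM in A549 parental Dox and noDox cells. On the gene's strand alone, E2F letters were in 13.9% and CCAAT in 30.6% of member promoters. Apart from the construction of glmTreat and the left-out libraries, the cause of these shifts was not tested. With 3 libraries a group, small changes such as that of PCNA could not be separated from the spread.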
